A study of Zea mays with 2 samples.

Results

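Chromatin loops were counted along the arms of the maize chromosomes in 1-Mb windows, and the windows with the most loops are described here. The 250 loop-dense windows were chosen by the measured number of loops: windows of chromosomes 1 to 10 lying within 10 Mb of a chromosome end or within 15 Mb of a fixed midpoint between the arms were left out, each loop was assigned to the window holding the start of its first anchor, and the loops of both replicates were summed. Of 2111 windows, 1601 were eligible and 250 of them (15.6%) were taken, which is the share set by the rule. The other 1351 eligible arm windows serve as the comparison. All windows are given on the B73 AGPv4 assembly, and chromosome ends were taken as the largest coordinate found in the files.

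Both Hi-C libraries came from leaves of the maize inbred line B73 at the v04 stage, grown in a greenhouse without treatment, and each replicate pooled the leaves of 4 plants. There was therefore a single condition with 2 replicates, and no comparison between conditions. Replicate 1 loops were called with Juicer Tools 1.9.9 and carry anchors of 5, 10 or 25 kb, while replicate 2 loops were called with version 1.14.08 and carry 10-kb anchors only. On chromosomes 1 to 10, 16863 and 25628 loops and 17978 and 18739 domains were listed for replicates 1 and 2, respectively. Having the longer loop list, replicate 2 weighed more in the choice of windows. The contacts counted at the loops, which did not enter the choice, summed to 440232 and 1006093. Caller version, anchor size and replicate cannot be told apart.

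Hi-C records which stretches of DNA lie close together in the nucleus, by ligating crosslinked fragments and sequencing the joined pairs. A loop is a pair of loci, the anchors, that contact each other more often than the surrounding map does. TAD-like domains are stretches whose loci contact each other more than they contact their flanks, and in maize they follow the alternation of active and repressed chromatin. The largest domains are called level 0, and sub-domains nested in them take levels from 1 upward. Maize chromosome arms are rich in genes, the pericentromeres are rich in repeats, and loops in this genome often join active chromatin.

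The window with the most loops lay at 183 to 184 Mb of chromosome 4, where 23 and 35 loops started in replicates 1 and 2, respectively. Windows at 210 to 211 Mb of chromosome 2 and at 150 to 151 Mb of chromosome 6 each held 21 and 33 loops. The window at 206 to 207 Mb of chromosome 5 held 17 and 37 loops, the highest replicate 2 count among the members, and the window at 142 to 143 Mb of chromosome 8 held 19 and 32. In each of these 5 windows both replicates were well above the mean of the other arm windows, 7.40 and 11.2 loops. Of the next 5 windows, those at 284 to 285 Mb of chromosome 1 and 148 to 149 Mb of chromosome 3 were placed by the rule for ties, since further windows on chromosomes 3, 5, 6 and 9 had the same sum of 47 loops. The 5 were found at 29 to 30 Mb (23 and 26 loops) and 284 to 285 Mb (21 and 26) of chromosome 1, and at 22 to 23 Mb (18 and 31), 187 to 188 Mb (18 and 30) and 148 to 149 Mb (19 and 28) of chromosome 3. On the remaining chromosomes, the highest windows were at 148 to 149 Mb of chromosome 7 with 14 and 31 loops, 116 to 117 Mb of chromosome 9 with 18 and 29, and in the window ending at 126 Mb of chromosome 10 with 17 and 25.

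A loop-dense window held a mean of 14.5 loops in replicate 1 and 23.0 in replicate 2, that is 1.96 and 2.05 times the means of the other arm windows (ratio 2.01 ± 0.0636, SD, n = 2). The members ranged from 8 to 23 loops in replicate 1 (median 14) and from 15 to 37 in replicate 2 (median 22.5). Since these counts made the choice, the ratio only describes it. The summed counts ran without a gap across the limit. The lowest members held 32 loops, a value shared by 28 members and by 1 window that was left out by the rule for ties, and 39 further windows held 31. Just inside, windows at 10 to 11, 92 to 93 and 129 to 130 Mb of chromosome 9 each held 11 and 21 loops. Just outside, the counts were 14 and 18 at 133 to 134 Mb of chromosome 10, 13 and 18 at 17 to 18 Mb of chromosome 1, and 12 and 19 at 43 to 44 Mb of chromosome 1. At the other extreme, 8 eligible windows held no loop in either replicate.

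**Figure D1:**
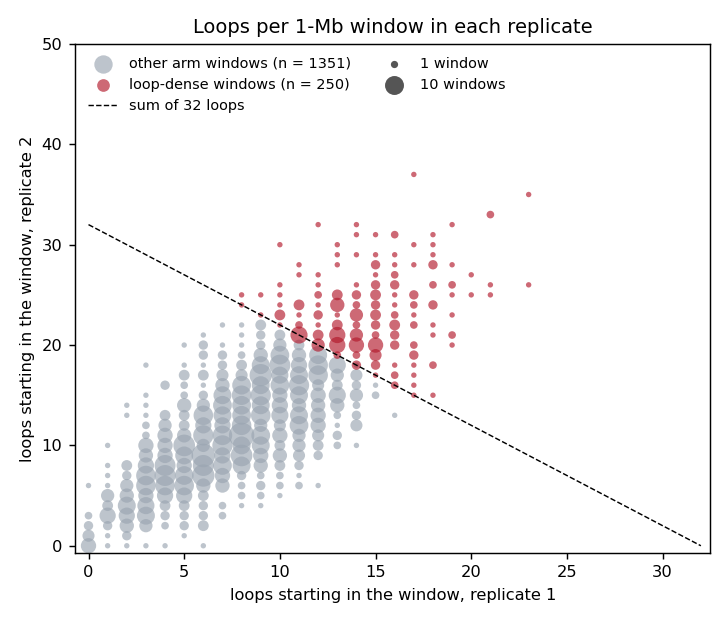
Loops starting in each 1-Mb arm window in replicate 1 (horizontal axis) and replicate 2 (vertical axis), with the area of a point proportional to the number of windows it stands for. Loop-dense windows (red) lie on or above the dashed line at a sum of 32 loops, which runs through a continuous cloud of windows (r = 0.778 over 1601 windows).

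Loop counts of the replicates followed each other over the 1601 eligible windows (Pearson r = 0.778, Spearman rho = 0.767, a description over windows that share libraries and neighbours). When replicate 1 alone chose 250 windows, these held a mean of 21.1 loops in replicate 2, against 11.6 in the other windows, or 1.82 times as many. When replicate 2 alone chose, the windows held 13.6 loops in replicate 1 against 7.57, or 1.80 times as many. In those readings 236 and 239 of the 250 chosen windows were above the median of eligible windows in the replicate that had not chosen them. The 2 choices had 156 windows in common, 62.4% of each, and all 156 were also among the members.

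The balance between replicates varied from member to member. Replicate 2 gave a median of 61.5% of a member's loops, from 45.5% to 75.8%. It gave most at 148 to 149 Mb of chromosome 6, with 8 loops in replicate 1 and 25 in replicate 2, at 146 to 147 Mb of the same chromosome, with 8 and 24, and at 149 to 150 Mb of chromosome 7, with 10 and 30. The lowest shares were at 121 to 122 Mb of chromosome 8, with 18 and 15 loops, at 81 to 82 Mb of chromosome 5, with 17 and 15, and at 52 to 53 Mb of chromosome 1, with 17 and 16. Thus a few members were loop-dense mainly through replicate 2, while in these last 3 the replicates were nearly equal although replicate 2 had the longer loop list.

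Loop-dense windows were unevenly spread along the arms. Only 3.0% of the eligible windows at 15 to 30 Mb from a midpoint were members (9 of 300), and 4.92% at 30 to 50 Mb. The share was 14.0% at 50 to 70 Mb, 22.5% at 70 to 90 Mb and 40.1% at 90 to 110 Mb (79 of 197), and it was 24.7% beyond 110 Mb. Measured from the nearest chromosome end, 28.5% of windows at 10 to 20 Mb were members (57 of 200), against 9.01% of those over 60 Mb away (64 of 710). Between these, the shares were 19.5% at 20 to 30 Mb, 15.9% at 30 to 40 Mb and 19.9% at 40 to 60 Mb. Members were thus a larger share of the windows in the outer parts of long arms, although the order over distance from the end was not strict. The median distance from the nearest end was 38.1 Mb for members and 57.0 Mb for the other arm windows.

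**Figure D2:**
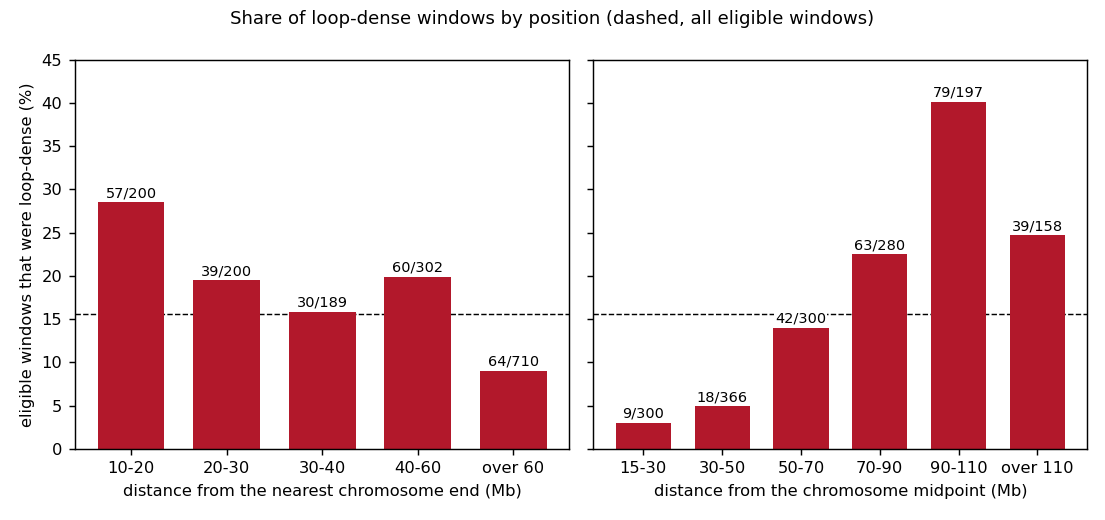
Percent of eligible arm windows that were loop-dense, by distance in Mb from the nearest chromosome end (left) and from the chromosome midpoint (right). Numbers above the bars give members over eligible windows, and the dashed line is the share over all eligible windows, 15.6%. The highest bar is at 90 to 110 Mb from the midpoint, 40.1%.

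Chromosome 1 held 52 members among 257 eligible windows (20.2%). Chromosomes 9 and 8 followed with 20 of 109 (18.3%) and 24 of 131 (18.3%). The lowest shares were on chromosome 10, with 10 of 100 windows, and chromosome 4, with 21 of 196 (10.7%). On chromosomes 2, 3, 5, 6 and 7 the members numbered 28, 31, 26, 19 and 19, between 14.4% and 16.8% of the eligible windows. The sides of the midpoint differed more than the chromosomes did. No member was found among the 27 and 32 eligible windows before the midpoints of chromosomes 6 and 7, where the mean loops per window were 4.52 and 6.03 in replicate 1, whereas after those midpoints 19 of 97 and 19 of 100 windows were members. All eligible windows before those midpoints lay within 50 Mb of them. At such distances members were few over all chromosomes, 3.0% at 15 to 30 Mb and 4.92% at 30 to 50 Mb. The part of distance in the difference between the sides was not tested. On chromosome 4, 3 of 84 windows before the midpoint and 18 of 112 after it were loop-dense. Chromosomes 1, 2 and 5 had similar shares on both sides, such as 19.6% and 20.7% on chromosome 1.

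**Figure D3:**
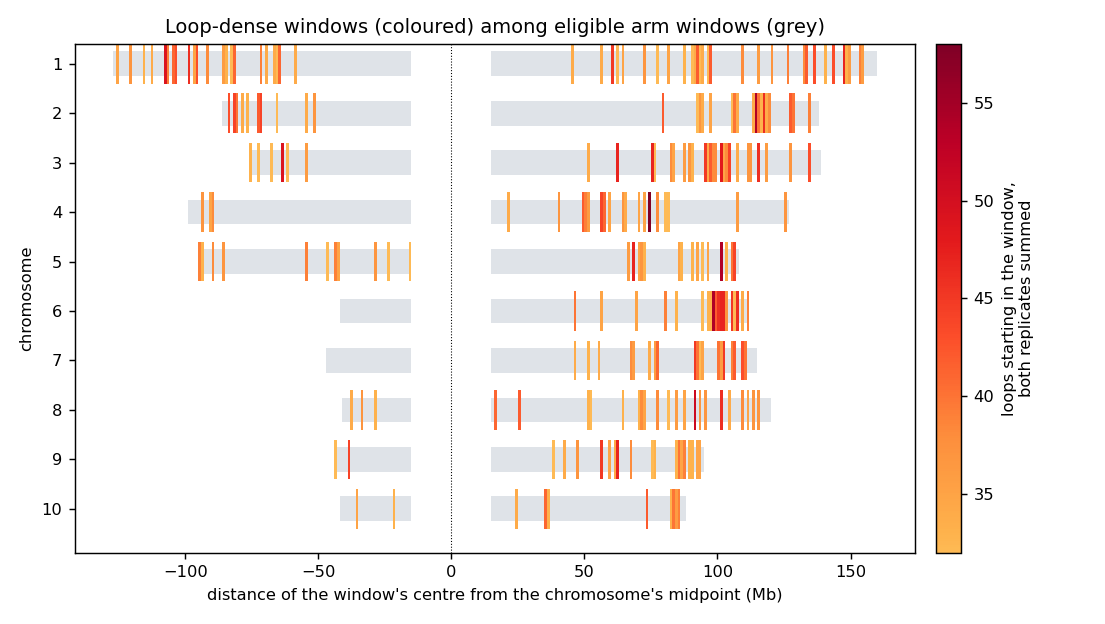
Position of the 250 loop-dense windows (coloured by summed loops, from 32 to 58) among the eligible windows (grey) of each chromosome, as distance in Mb from the chromosome midpoint. Members are more frequent toward the outer arms and form a dense block near 100 Mb after the midpoint of chromosome 6. They are missing before the midpoints of chromosomes 6 and 7, where all eligible windows lie within 50 Mb of the midpoint.

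Members often touched each other. The 250 windows formed 166 runs, of which 116 were single windows, 33 were pairs, 9 held 3 windows, 4 held 4 and 4 held 5 or more. In all, 134 members (53.6%) had a member beside them, while 291 of the other 1351 arm windows (21.5%) did. No chance level was computed for these shares, since neighbouring windows share arm position, and some loops and domains cross their common border.

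The longest run covered 8 windows at 148 to 156 Mb of chromosome 6. It held 121 and 218 loops, 42 and 46 level 0 domains, and 42 and 59 sub-domains in replicates 1 and 2, respectively, and 59 of its loops were found in both replicates. Its windows ranged from 33 to 54 summed loops, with 30 and 25 in the windows on either side, so that the run ended close to the limit on one flank. Only 11 and 25 of its loops joined different windows of the run, and 1 and 4 left it. A second run of 7 windows at 209 to 216 Mb of chromosome 2 held 100 and 179 loops with 26 and 34 level 0 domains. Its level 0 domains reached 910 and 850 kb, against 640 and 510 kb in the run on chromosome 6.

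Runs of 5 windows lay at 227 to 232 Mb of chromosome 1, with 67 and 107 loops, and at 181 to 186 Mb of chromosome 3, with 75 and 122 loops. The latter was followed, after a single window with 29 summed loops, by a run of 4 windows at 187 to 191 Mb with 61 and 104 loops. These 2 runs thus made up a stretch of 10 Mb in which 9 windows were members. It included the deepest nesting among the 5 longest runs, level 4 in replicate 1 and level 5 in replicate 2.

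Loop counts of neighbouring windows were related well beyond a single border. Summed counts of windows 1 Mb apart correlated at r = 0.452 (Spearman rho = 0.455, 1581 pairs), and the values were r = 0.403 at 2 Mb, 0.319 at 5 Mb and 0.304 at 10 Mb. Replicate 1 counts set against replicate 2 counts of the window 1 Mb further gave r = 0.388. Among windows that were not members, those touching a member held means of 9.14 and 13.7 loops in replicates 1 and 2, respectively, those 5 Mb from the nearest member 7.0 and 10.7, and those over 10 Mb away 5.69 and 8.62. The level 0 domains starting in these windows were 3.73 and 3.83, 3.08 and 3.33, and 2.70 and 2.77. The order over distance was not strict, with 7.38 and 12.7 loops and 3.10 and 3.41 level 0 domains at 7 Mb. Distance from the midpoint differed as well. Its median was 80.5 Mb for windows touching a member and 52.5 Mb for all other arm windows, and its part was not tested.

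The domains were called by another program than the loops, although from the same contacts. Level 0 domains starting in loop-dense windows were 180 kb long in the median in replicate 1 (quartiles 120 and 280 kb, n = 1107) and 170 kb in replicate 2 (110 and 270 kb, n = 1138). In the other arm windows the medians were 230 kb (140 and 380 kb, n = 4385) and 220 kb (130 and 370 kb, n = 4538), so the ratio of medians was 0.783 and 0.773. The quartile ranges overlapped widely. The median was smaller in the loop-dense windows on 9 of 10 chromosomes in replicate 1 and on 10 of 10 in replicate 2, the exception being chromosome 10 in replicate 1, with 265 kb against 250 kb and only 10 members. Windows that touched a member without being one were in between, at 205 and 200 kb.

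Accordingly, more level 0 domains started in a loop-dense window, 4.43 and 4.55 on average, against 3.25 and 3.36 elsewhere on the arms (ratio 1.36 in each replicate). The mean was higher on 10 of 10 chromosomes in both replicates. It was also higher in all 11 classes of distance from the end or the midpoint: at 15 to 30 Mb from the midpoint the means were 4.11 and 4.22 in members against 2.76 and 2.81 in the others, and at 90 to 110 Mb they were 4.65 and 4.44 against 3.88 and 3.91. At least 6 level 0 domains started in 26.0% and 28.0% of the members and in 7.03% and 7.99% of the other windows. With 2 or fewer, the shares were 10.4% in each replicate against 31.9% and 29.1%.

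The same held where the loops of the other replicate chose the windows. Replicate 2 domains in windows chosen by replicate 1 loops had a level 0 median of 170 kb against 220 kb, with 4.51 against 3.37 starts per window. Replicate 1 domains in windows chosen by replicate 2 loops had a median of 180 kb against 230 kb, with 4.41 against 3.25 starts.

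**Figure D4:**
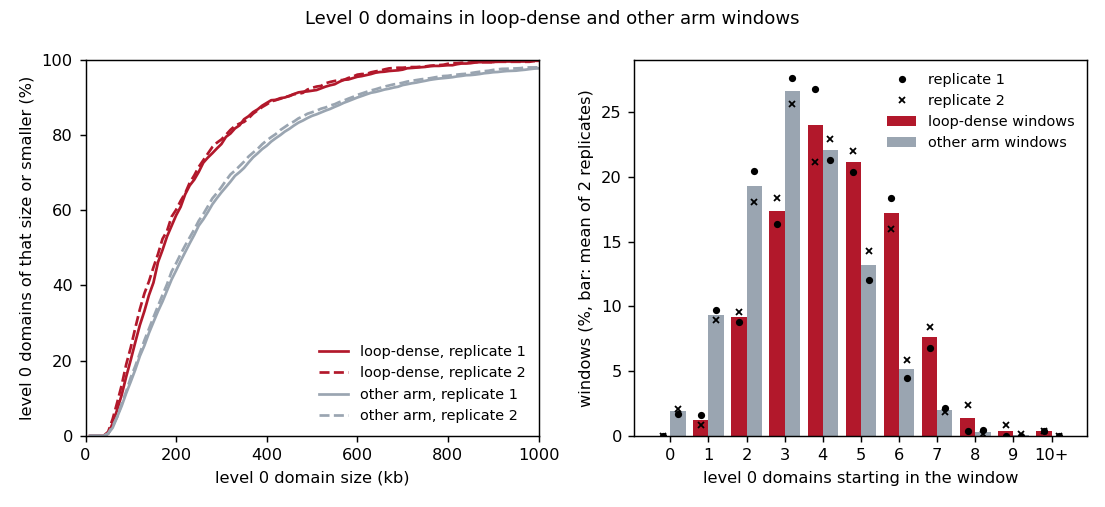
Left, cumulative percent of level 0 domains by size in kb for loop-dense windows (red) and other arm windows (grey), replicate 1 solid and replicate 2 dashed. Right, percent of windows by number of level 0 domains starting in them, with bars for the mean of 2 replicates and points for each replicate. Red curves lie to the left of grey ones, with medians of 180 and 170 kb against 230 and 220 kb.

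Small level 0 domains made up more of the total in loop-dense windows. Those of up to 100 kb were 20.2% (95% Wilson interval 18.0 to 22.7%) and 23.6% (21.2 to 26.1%) of level 0 domains, against 14.4% (13.4 to 15.5%) and 15.6% (14.5 to 16.6%) elsewhere. Those of 500 kb or more were 8.40% and 7.91%, against 15.5% and 14.3%. These and the following intervals cover counting error only, since neighbouring domains and loops are not independent.

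Large domains nevertheless started in some members. The largest in replicate 1 was a level 0 domain of 1260 kb on chromosome 2 (175390001 to 176650000) with 3 sub-domains, 9 loops lying inside it. It ran far into the next window, which held 19 summed loops and was not a member. In replicate 2 it was a domain of 1050 kb on chromosome 8 (121820001 to 122870000) with 6 sub-domains and 16 loops inside. In the same window of chromosome 8, replicate 1 listed 7 level 0 domains and no sub-domain, the largest of 200 kb, and replicate 2 listed 4 level 0 domains and 7 sub-domains. Domains were placed by their start, and most of the 1050-kb domain lay in the next window, also a member. There replicate 1 listed 7 level 0 domains, the largest of 300 kb. The replicates thus divided the stretch of these neighbouring members differently, although the counts of a single window do not cover the same DNA. The member with the most domains, at 198 to 199 Mb of chromosome 3, had 16 in each replicate, with 12 and 25 loops. The one with the fewest, singled out after its values were seen, lay at 177 to 178 Mb of chromosome 5 and had 4 and 6 domains with 13 and 20 loops.

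Sub-domains differed less than level 0 domains. A loop-dense window held 6.10 and 6.52 sub-domain starts against 5.23 and 5.38 (ratio 1.17 and 1.21), higher on 9 of 10 chromosomes in each replicate but on chromosome 6 lower in replicate 1 (5.32 against 5.53) and on chromosome 7 lower in replicate 2 (5.58 against 5.68). Since level 0 domains were more numerous still, sub-domains formed a smaller share of all domains, 58.0% and 58.9% against 61.7% and 61.6%. Domains of level 3 or deeper were 3.34% and 4.30% in members against 5.97% and 5.72%. A level 0 domain of a loop-dense window had at least 1 sub-domain in 40.1% of cases in both replicates, against 43.0% and 44.0%. The hierarchy in these windows was thus somewhat shallower than in all other arm windows, with more domains side by side. Where a window touched a member without being one, sub-domains formed 58.5% and 59.1% of all domains. Domains of level 3 or deeper were 4.02% and 4.23% there, and 41.1% and 40.8% of level 0 domains had a sub-domain. These shares were close to those of the members, so the shallower hierarchy was not particular to the members. Counting all levels, 10.5 and 11.1 domains started in a member and 8.47 and 8.74 in another arm window (ratio 1.25 ± 0.0163, SD, n = 2).

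Domains of loop-dense windows recurred more often between the replicates. Both boundaries lay within 10 kb of those of a domain of the other replicate for 48.3% (46.4 to 50.2%) and 46.2% (44.3 to 48.0%) of the domains, against 37.7% (36.8 to 38.6%) and 36.5% (35.7 to 37.4%) in other arm windows. In windows touching a member, the shares were 40.6% and 38.8%. Small domains recurred more than large ones in both groups, so the shares were also taken within classes of size. Among domains of 50 to 100 kb they were 55.1% and 50.6% against 44.6% and 41.5%, and among those of 110 to 200 kb 52.1% and 50.2% against 41.7% and 39.6%. At 210 to 400 kb the difference was smaller, 38.5% and 38.0% against 33.5% and 33.0%, with intervals that overlapped slightly, and above 400 kb it was not detectable, 24.4% and 24.7% against 25.2% and 26.4%, with overlapping intervals.

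Over all 1601 eligible windows, the number of loops correlated with the number of level 0 domains at r = 0.466 and 0.453 in replicates 1 and 2, respectively, as a description. Over the 250 members the values were 0.169 and 0.0643, but the rule had cut their range of loops to sums of 32 to 58, so the values are not comparable.

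Loops starting in loop-dense windows had a median length of 100 kb in replicate 1 (n = 3631) and 120 kb in replicate 2 (n = 5752). In the other windows the median was 25 kb longer in replicate 1 and the same in replicate 2. Loops of the members were shorter on 10 of 10 chromosomes in replicate 1, and in replicate 2 on 7 with 3 equal. Loops of up to 100 kb were 50.2% (48.6 to 51.8%) and 45.2% (43.9 to 46.5%) of the total against 41.2% (40.2 to 42.2%) and 42.9% (42.1 to 43.7%), and loops over 500 kb were 2.51% and 2.50% against 3.70% and 3.82%. In windows that touched a member without being one, loops of up to 100 kb were 46.4% and 46.3%, and those over 500 kb 2.59% and 2.85%. The median length there was 110 kb in each replicate. In replicate 2 the larger share of short loops was thus not particular to the members. Anchor size moved with loop length in replicate 1, where 40.9% of the members' loops had 5-kb anchors and 18.2% had 25-kb anchors, against 31.2% and 27.5%. Within an anchor size the medians were 70 against 75 kb at 5 kb and 120 against 130 kb at 10 kb, while at 25 kb the order turned, with 250 against 225 kb. The part of anchor size in the difference was not tested further.

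**Figure D5:**
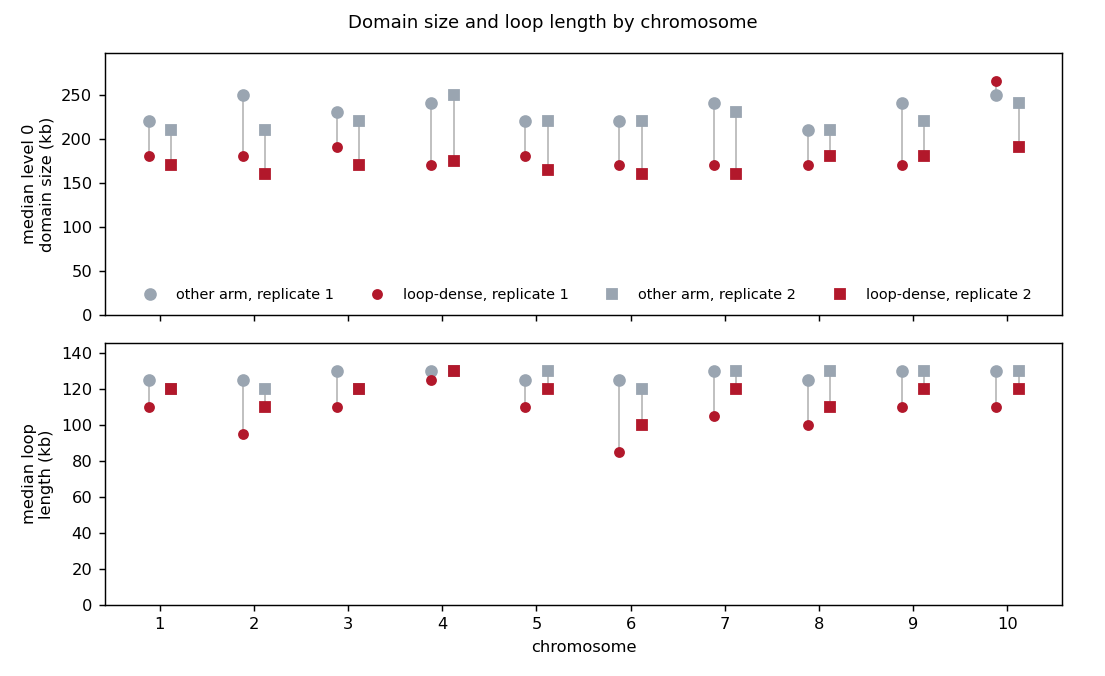
Median level 0 domain size (top, kb) and median loop length (bottom, kb) on each chromosome in loop-dense windows (red) and other arm windows (grey), circles for replicate 1 and squares for replicate 2. Red domain medians lie below grey ones except on chromosome 10 in replicate 1, 265 against 250 kb, and loop lengths differ by less, with equal medians on 3 chromosomes in replicate 2.

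Contacts at a loop were similar, with a median of 20 in replicate 1 and 34 in replicate 2 for loops of the members, against 21 and 31. Within an anchor size of replicate 1, the medians were 16 against 15 at 5 kb, 22 against 20 at 10 kb and 39 against 41 at 25 kb. The observed contacts divided by the expectation from the donut around the loop came to 5.37 and 4.71, against 4.76 and 4.36, and the ratio was higher on 10 of 10 chromosomes in each replicate. In replicate 1 that count pools the anchor sizes, whose mix differed between the groups. By anchor size, the replicate 1 ratio was 7.65 against 7.49 at 5 kb, 4.89 against 4.69 at 10 kb and 3.18 against 3.10 at 25 kb. In windows that touched a member without being one, the ratio was 5.11 and 4.46. At 25 kb in replicate 1 it was 3.27 there, above that of the members. Summed over a window, the contacts at loops were 352 and 975 in members against 197 and 421. This sum grows with the number of loops, which chose the windows, so it is a description.

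A loop was taken as found in the other replicate where a loop there overlapped both of its anchors by at least 1 bp. This was so for 51.7% (50.1 to 53.3%) of the members' loops in replicate 1 and 32.6% (31.4 to 33.9%) in replicate 2, against 45.4% (44.4 to 46.4%) and 29.99% (29.3 to 30.7%). The share was higher in the loop-dense windows on 10 and 8 of 10 chromosomes. By anchor size, the replicate 1 shares were 58.7% against 55.8% at 5 kb, with overlapping intervals. They were 50.3% against 45.4% at 10 kb and 39.2% against 33.7% at 25 kb. Identical anchors, possible at 10 kb only, were found for 20.6% and 13.0% against 18.8% and 12.4%, with overlapping intervals. A loop listed in both replicates counted for both in the sum that chose the windows, so this share is not independent of the choice. In replicate 2 the difference was limited to loops of up to 100 kb, with 38.1% against 28.9%, while at 100 to 200 kb the shares were 31.7% against 34.4% with overlapping intervals, and at 200 to 500 kb the order turned, 24.7% (22.5 to 27.2%) against 28.7% (27.3 to 30.2%).

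Within the 5 windows with the most loops, the loop with identical anchors in both replicates and the most summed contacts was examined. On chromosome 4 it joined 183380001 to 183390000 with 183430001 to 183440000, 50 kb apart, with 40 and 61 contacts, 3.13 and 2.79 times the donut expectation. On chromosome 2 a loop from 210400001 to 210410000 to 210450001 to 210460000 had 48 and 105 contacts (4.47 and 6.35 times), and was embedded in a level 1 domain in both replicates.

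The loop of the chromosome 5 window was longer, 100 kb, from 206590001 to 206600000 to 206690001 to 206700000, and had 54 and 132 contacts. It stood out most from its surroundings, at 6.91 and 16.4 times the expectation. In replicate 1 a level 0 boundary at 206680000 fell between its anchors and no single domain held it, whereas in replicate 2 it lay in a level 1 domain with an anchor at one boundary.

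On chromosome 6, a loop of 50 kb from 150450001 to 150460000 to 150500001 to 150510000, with 58 and 121 contacts (3.41 and 3.81 times), joined both boundaries of a level 1 domain in both replicates. Its first anchor lay at the border between the level 0 domains that started at 150250001 and 150450001 in both replicates. On chromosome 8, a loop of 60 kb from 142100001 to 142110000 to 142160001 to 142170000 had 33 and 76 contacts (2.71 and 4.43 times). It joined both boundaries of a level 1 domain in replicate 1 and was embedded in a level 0 domain in replicate 2.

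A domain was taken to hold a loop where each anchor lay inside it or overlapped the 2 kb around one of its boundaries. Most loops of the loop-dense windows were held by 1 domain, 78.4% (77.1 to 79.7%) and 74.0% (72.8 to 75.1%), against 79.8% (79.0 to 80.5%) and 78.8% (78.1 to 79.4%) in the other windows. The intervals overlapped in replicate 1 and were apart in replicate 2, where a lower share was seen on 9 of 10 chromosomes. Among loops of 200 to 500 kb a lower share was found in both replicates, 49.4% and 44.1% against 63.8% and 57.7%, and likewise above 500 kb, 12.1% and 14.6% against 28.4% and 26.8%. At 100 to 200 kb the shares were 79.5% and 71.6% against 81.2% and 79.1%. Fully embedded loops, away from any boundary of the domain, were 36.9% and 26.8% of the total, against 37.4% and 30.8%. Loops joining both boundaries of 1 domain were 9.06% and 11.7%, against 8.96% and 11.3%, with overlapping intervals.

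Anchors of the loop-dense windows took part in several loops more often. Overlapping anchors were merged into sites within each replicate, which gave 16.4 and 20.2 sites per member against 9.76 and 12.4 (1.68 and 1.63 times). The sites thus differed by less than the loops, and each was used by more loops, 1.75 and 2.25 on average against 1.52 and 1.82. Sites in more than 1 loop were 44.4% and 60.1% against 34.4% and 47.3%, and sites in 5 or more loops were 2.51% and 8.03% against 1.11% and 2.94%. The number of loops per site comes from the same lists that chose the windows, so it is a description.

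In replicate 1 the most used site of a member, on chromosome 1 (29500001 to 29525000), took part in 8 loops and lay in one of the 10 windows with the most loops. In replicate 2, 9 loops each used sites on chromosome 1 (45170001 to 45180000) and chromosome 3 (22420001 to 22430000 and 173420001 to 173430000). Nesting and coverage also come from the loop lists that chose the windows and are given as a description. Inside a larger loop lay 37.6% and 57.0% of the members' loops against 29.3% and 43.1%. Stretches spanned by at least 1 loop made up 91.5% and 96.7% of a member's length on average, against 76.6% and 83.7%.

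Few loops left the window in which they started, 14.4% and 13.8% in the members against 17.4% and 17.6%. Of those that did, the second anchor was in another loop-dense window for 32.8% and 35.8%, against 14.0% and 14.9% for loops leaving other arm windows. For loops leaving windows that touched a member without being one, the shares were higher still, 57.8% and 58.6%. A member lay on at least 1 side of every such window, against 53.6% of the members and 21.5% of all other arm windows. Loops were placed by their first anchor and so left only toward higher coordinates. Shares that count a member on either side are therefore only a rough reference for them. Loops that stayed within a single level 0 domain were 8.98 and 13.2 per Mb of domain in members against 4.84 and 7.34, and 74.0% and 77.0% of their level 0 domains held at least 1 loop against 61.2% and 68.4%. These last values restate the loop counts by which the windows were chosen.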

How the data were processed

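Loop and domain lists of Hi-C replicates 1 and 2 were used as deposited. Per the labels and the study's methods, the authors mapped reads to B73 RefGen_v4 with Juicer, called loops with HICCUPS and called hierarchical domains with HiTAD at default settings, separately in each replicate. The deposited loop lists give the count of contacts observed at a loop, expected contacts as a signal, and false discovery rates (q-values). Loops were placed by the start of the first anchor and domains by their start. Rows of Chr0 were not used. Windows were ranked by summed loops, ties by chromosome then start. Named windows are the 10 highest, the highest of each chromosome, the 5 longest runs, 3 on either side of the limit, the 3 extremes of replicate balance, and those with the largest and the most domains. The windows and all measures were chosen with earlier results of these data known. Windows are not replicates and the design holds 1 condition, so no test was made; values are given per replicate, with 95% Wilson intervals where stated. Alternatives covered scaling, anchor size, false discovery rate, placement, window number and each replicate alone. The scripts were tested on simulated data. Python 3.11.15, pandas 2.3.3, numpy 2.4.6 and scipy 1.17.1 were used.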

Additional observations from a re-analysis of the deposited data

How the results depend on the processing

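Of 57 alternative values for 7 results, 40 stayed within the spread between replicates (for the runs, within 1.5 times) and 17 moved beyond it. None of the ratios turned direction, while runs and shares have no direction to turn. The ratio of loops per window is above 1 by the choice itself, unless the other replicate gave the loops. For loop length and the share of loops found in the other replicate the spread was wide (SD 0.141 and 13.5, n = 2), so staying within it says little. A found share of 31.6% with 10-kb anchors only still counted as within it. The ratio of loops per window, 2.01, was 2.10 with 10-kb anchors only and 1.81 where 1 replicate chose the windows and the other gave the loops, and with a single replicate it was 2.07 and 2.09. Runs numbered 103 with the smaller number of windows tried (the upper 50% of the members) and 254 with 500 windows, against 166. The ratio of level 0 domain sizes, 0.778, was 0.756 with loops placed by the middle between their anchors or domains by their middle, 0.75 with the smaller number or with 500 windows, and 0.8 with domains of at least 100 kb only. It was 0.773 and 0.783 with a single replicate. The ratio of domains per window, 1.25, was 1.29 with windows starting 500 kb later or with the smaller number of windows, 1.23 with domains placed by their middle, 1.11 with domains of at least 100 kb only, and 1.23 and 1.26 with a single replicate. The ratio of loop lengths, 0.9, was 0.88 and 1 with a single replicate, so it was absent in replicate 2 alone. The share of loops found in the other replicate, 42.2%, was 16.8% when anchors had to be identical. Replicate 2 carries 10-kb anchors only, so replicate 1 loops with 5-kb or 25-kb anchors could not meet this. The 16.8% therefore does not measure stricter matching alone. The share held by 1 domain, 76.2%, was 61.7% without the margin at the boundaries. The causes were not tested.

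Scaling the replicates to the same total kept 236 of the 250 windows, a false discovery rate of at most 0.01 kept 234, and placing loops by their middle or using 10-kb anchors only kept 210 each. Replicate 1 alone kept 189 and replicate 2 alone 217. Margins measured from window middles, an alternative chosen after seeing the data, kept 249, with a ratio of 2.01 and 167 runs. No paired analysis was possible because the study holds a single group. With 2 replicates, called differently, the spread between them is known only roughly, and loops of few contacts limit what each list can hold.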
